A study of Mus musculus with 24 samples.

Results

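p53 was restored in the presence of cyclosporin A (CsA) in 3 Type D small cell lung cancer (SCLC) cell lines, and 6 of the series' 24 RNA-seq libraries measured the result. The members were taken by their labels: the Restored + CsA libraries of lines 4711-1, 4711-18 and 4716-11 against the Control + CsA libraries of the same lines, paired by line, 72 h after treatment. The lines were grown from lung tumors of Trp53 XTR/XTR mice that were also Rb1 flox/flox, Rbl2 flox/flox and carried Rosa26 FlpO-ER, begun with an adenovirus that carries Cre under a CMV promoter. Cre deletes the floxed parts of Rb1 and Rbl2 and turns the XTR allele into a gene trap, so controls and restored cells alike carry the designed Rb1 and Rbl2 deletions and differ in whether Trp53 is trapped. 4-hydroxytamoxifen (4-OHT), a ligand of the estrogen receptor part of the fusion protein, activates FlpO, which removes the trap. Restored + CsA cells received 4-OHT and CsA, Control + CsA cells CsA alone, Restored cells 4-OHT alone and Control cells vehicle. No control received 4-OHT, so an effect of 4-OHT or of FlpO activity and an effect of p53 cannot be told apart. Type D denotes lines that lose viability after restoration, and Type V denotes lines that stay viable. Lines 4711-11, 4716-10 and 4716-14 are the Type V lines. The 12 other Type D and Type V libraries used here (Restored and Control of Type D, Restored + CsA and Control + CsA of Type V) served for comparison, and all 24 libraries entered the fit that set the spread.

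p53 is a transcription factor that binds DNA as a tetramer and raises genes for cell cycle arrest, cell death, repair, metabolism and its own degradation. Its target p21, the product of Cdkn1a, inhibits cyclin-dependent kinases, and mitotic genes are then repressed through complexes of the retinoblastoma family. SCLC nearly always lacks p53 and RB1. CsA binds cyclophilins, which are proline isomerases, and its complex with cyclophilin A inhibits the phosphatase calcineurin. The comparison asks which part of the p53 response was made while cyclophilins were inhibited.

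Expression was given as TPM, a transcript abundance scaled for gene length and library. Differences were given as log2(TPM + 1), restored minus control, averaged over 3 lines, with the SE of the limma fit. A change of a low gene is understated on this scale. A gene was called higher or lower where it changed by 1 log2 or more with a Benjamini-Hochberg adjusted p below 0.05, and "rose" and "fell" are used of such genes. TPM carries no read counts, so depth is unknown, and since TPM sums to the same total in every library, fewer cells of a type, less RNA per cell and a rise of other genes cannot be told apart. In the 6 libraries 11853 to 12281 genes reached 1 TPM and the 10 most abundant genes held 5.10 to 6.15 percent of the TPM. Neuroendocrine markers were largely absent: Chga was listed at 0 in all 6 libraries and Neurod1 in 5, whereas Yap1 had 95.8, 102 and 93.5 TPM in the controls. The labelled SCLC identity is thus not visible in these markers. Fibroblast markers summed to 0.304 to 1.13 TPM and endothelial markers to 0.181 to 0.777 TPM. Of 8 immune markers, the leukocyte surface genes Ptprc, Adgre1, Itgam and Cd3e were at or near 0, and the summed level of 6.53 to 13 TPM in Control + CsA and 28.3 to 44.7 TPM in Restored + CsA came mostly from Cd68, a lysosomal gene, which rose by 1.96 ± 0.24 log2 (limma adjusted p = 1.34e-05). The part of other cells in the results was not tested.

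Trp53 was examined first because it is the manipulated gene. In lines 4711-1, 4711-18 and 4716-11 its TPM was 14.8, 13.1 and 10.5 in Control + CsA and 215, 206 and 233 in Restored + CsA, and no library went against its label. The level rose by 4.00 ± 0.12 log2 (limma adjusted p = 6.88e-12). Cdkn1a, the p21 gene, had 113, 145 and 85.2 TPM in Control + CsA and 1271, 2082 and 1405 TPM in Restored + CsA, a rise of 3.78 ± 0.13 log2 (limma adjusted p = 3.88e-11). Mdm2, the ubiquitin ligase that degrades p53, went from 82.2, 75.8 and 63 TPM to 1041, 1251 and 1244 TPM, a rise of 3.99 ± 0.13 log2 (limma adjusted p = 1.99e-11). For all 3 genes the lowest restored library lay far above the highest control. Without CsA the same lines reached 1871, 2539.9 and 1563 TPM of Cdkn1a and 1584, 1570.1 and 1384 TPM of Mdm2 after restoration, each line above its own value with CsA. The difference between the changes with and without CsA was -0.39 ± 0.19 log2 for Cdkn1a (limma adjusted p = 1) and -0.38 ± 0.18 log2 for Mdm2 (limma adjusted p = 1), and neither passed the test.

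**Figure D1:**
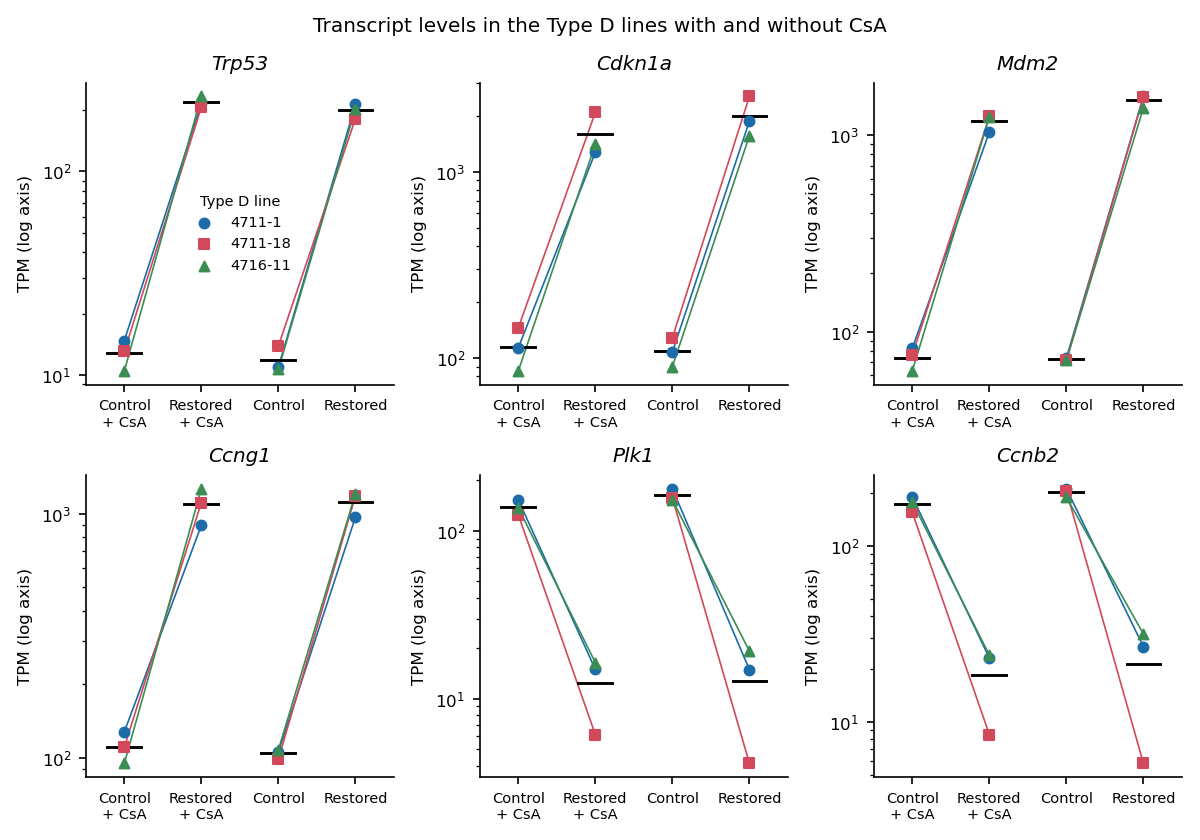
TPM on a log axis of 6 genes in the 3 Type D lines, with Control + CsA, Restored + CsA, Control and Restored along the x axis; points are libraries, thin lines join the libraries of a cell line and black bars are group means. Trp53, Cdkn1a, Mdm2 and Ccng1 were higher and Plk1 and Ccnb2 lower in each restored library than in any control, and line 4711-18 held the lowest restored Plk1, 6.11 TPM with CsA.

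The p53 element that is known for Cdkn1a can be read in the 250 bases before an annotated start of the gene (chr17:29090729-29090978, plus strand, GRCm38.p6, RefSeq). Capitals mark a match to the p53 consensus, a pair of adjoining half-sites with the core letters of both intact, that begins 51 bases before the start:
Cdkn1a: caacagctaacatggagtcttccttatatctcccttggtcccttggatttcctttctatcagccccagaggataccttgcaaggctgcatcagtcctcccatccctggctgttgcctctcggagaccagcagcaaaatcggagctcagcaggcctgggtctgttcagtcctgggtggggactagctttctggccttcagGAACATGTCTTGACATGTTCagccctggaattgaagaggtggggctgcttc
Over all genes with a promoter in the table, 21 of 27025 held such a match in this window (0.0777 percent), allowing 1 mismatch outside the cores and 1 base between half-sites on either strand. Among the genes that rose, 632 had a promoter in the table and 2 held a match, Cdkn1a and Rps27l, which encodes a ribosomal protein paralog and rose by 1.26 log2. No match in this window says only that these letters are not there.

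Over the 14104 genes tested, 833 genes (5.91 percent) rose after restoration under CsA and 533 (3.78 percent) fell, and 820 and 526 of these moved the same way in all 3 lines. Restored and control libraries did not overlap in 710 of the genes that rose and 420 of those that fell. Over all 14104 genes, called or not, every restored library lay above every control in 2963 genes and below in 1533. The split depended on the scaling: 665 genes rose and 640 fell after median-ratio scaling, and 639 and 647 after quantile normalization. Without the cell line as a block, 498 genes rose and 265 fell. The median over all genes tested was 0.09 log2.

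Among genes of at least 5 TPM that moved alike in all lines, the 10 largest rises were Atg9b, 1700007K13Rik, Sytl1, Slc4a11, Ces2e, Cd80, Mmp10, Inka2, Ptp4a3 and Ak1, by 4.38 to 5.67 log2. Atg9b encodes a membrane protein of autophagosome formation. Atg9b had 9.44, 1.91 and 2.41 TPM in Control + CsA and 312, 183 and 234 TPM in Restored + CsA (5.67 ± 0.33 log2, limma adjusted p = 7.57e-09). Line 4711-1 had the highest value in both groups. Slc4a11, a membrane transporter, had 3.83, 1.7 and 2.38 TPM in Control + CsA and 218, 67.3 and 197 TPM in Restored + CsA (5.35 ± 0.38 log2, limma adjusted p = 5.19e-08). Line 4711-18 was the lowest of the restored libraries there, and also for Ces2e, a carboxylesterase, with 57.1, 29.6 and 139.8 TPM after restoration. Cd80, the costimulatory ligand that T cells read through CD28, had 0.735, 0.172 and 0.457 TPM in Control + CsA and 31.6, 23.6 and 40.9 TPM in Restored + CsA (4.49 ± 0.18 log2, limma adjusted p = 2.15e-10). No Type D control reached 1 TPM of Cd80. Cd80, 1700007K13Rik, Sytl1 and Ces2e reached 1 TPM in fewer than 3 control libraries of either type together. They passed the filter on low values through restored libraries, which favors a rise. Sytl1, an effector of Rab27 in vesicle traffic, rose by 5.38 ± 0.28 log2 and Ptp4a3, the phosphatase PRL-3, by 4.42 ± 0.33 log2.

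The 10 largest falls were Cxcl5, Ccl2, Sprr2b, Saa3, Sult1c2, Vsig1, Tmigd1, Lcn2, Lgals2 and Plk1, with changes of -3.47 to -4.76 log2. Cxcl5, a neutrophil chemokine, had 1040.2, 362 and 852 TPM in Control + CsA and 21.8, 12.3 and 52.3 TPM in Restored + CsA (-4.76 ± 0.75 log2, limma adjusted p = 0.000137). Ccl2, a monocyte chemokine, had 117, 271 and 205 TPM in Control + CsA and 2.35, 14 and 18.1 TPM in Restored + CsA (-4.25 ± 0.44 log2, limma adjusted p = 2.11e-06). In both chemokine genes the 3 restored libraries lay below every control. Lcn2, the iron-binding lipocalin, had 77.2, 296 and 391 TPM in Control + CsA and 10.5, 9.65 and 40.1 TPM in Restored + CsA (-3.61 ± 0.56 log2, limma adjusted p = 0.00012). The acute-phase gene Saa3 was listed at 0 in 2 restored libraries and had 8.91, 90.9 and 9.18 TPM in the controls, so that line 4711-18 carried most of its level. Sprr2b belongs to a family of nearly identical cornified envelope genes, and its reads may be shared with its paralogs. Without the cell line block the calls of Cxcl5, Ccl2, Saa3 and Lcn2 were lost (limma adjusted p = 0.404, 0.339, 0.462 and 0.572).

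The regulators of p53 itself, the first of the lists of known targets, rose in 6 of 10 tested members and fell in 0, with a median of 1.47 log2 beside 0.09 log2 over all genes. Besides Mdm2, the 5 were Ccng1, Trp53inp1, Zmat3, Mdm4 and Ppm1d. Ccng1, cyclin G1, had 127, 110.2 and 94.6 TPM in Control + CsA and 896, 1111 and 1265 TPM in Restored + CsA (3.28 ± 0.17 log2, limma adjusted p = 1.58e-09). Trp53inp1, a stress protein that binds p53, had 48.6, 35.6 and 32.9 TPM in Control + CsA and 478, 229.8 and 422 TPM in Restored + CsA (3.19 ± 0.19 log2, limma adjusted p = 7.57e-09). Line 4711-18 had the lowest restored Trp53inp1, and the groups did not overlap in either gene. Mdm4, an inhibitor of p53, rose by 1.81 ± 0.27 log2 and Zmat3, an RNA-binding target, by 2.89 ± 0.11 log2. Ppm1d, the phosphatase WIP1, rose by 1.13 ± 0.13 log2. Trp73 did not pass the filter on low values and Trp63 was near 0 in all 6 libraries.

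Of 17 tested arrest genes, 7 rose and 0 fell (median 1.00 log2): Cdkn1a, Psrc1, Ptpn14, Gtse1, Plk2, Btg2 and Sfn. Psrc1, a microtubule-binding target, had 17.2, 44.6 and 16 TPM in Control + CsA and 155, 354 and 208 TPM in Restored + CsA (3.23 ± 0.25 log2, limma adjusted p = 8.68e-08). Ptpn14, a phosphatase that restrains YAP, rose by 2.58 ± 0.13 log2, with 60.8, 109 and 78.8 TPM after restoration. No other tested inhibitor of cyclin-dependent kinases was called. Cdkn2a, which encodes p16 and p19ARF, had 973, 939 and 1192 TPM before and 864, 615 and 708 TPM after (-0.51 ± 0.15 log2), and Cdkn1b, the p27 gene, changed by -0.51 ± 0.12 log2, and neither reached 1 log2.

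Cell death genes had a larger share that rose: 14 of 19 tested members rose, 1 fell, and the median was 1.90 log2. The means per line were 1.49, 1.58 and 1.52 log2 in 4711-1, 4711-18 and 4716-11. Eda2r, a receptor of the tumor necrosis factor family, had 4.0, 0.543 and 2.04 TPM in Control + CsA and 57.3, 27.4 and 49.3 TPM in Restored + CsA (3.93 ± 0.25 log2, limma adjusted p = 1.76e-08). Pidd1, the scaffold of the PIDDosome, had 14.2, 10.5 and 12.3 TPM in Control + CsA and 111, 123 and 139 TPM in Restored + CsA (3.23 ± 0.18 log2, limma adjusted p = 4.7e-09). Fas, the death receptor, had 5.63, 12.1 and 9.37 TPM in Control + CsA and 59.5, 80.9 and 85.8 TPM in Restored + CsA (2.97 ± 0.45 log2, limma adjusted p = 8.64e-05). In these 3 genes every restored library was above every control, and Fas alone of them lost its call without the block (limma adjusted p = 0.0695). Of the BH3-only genes, Bbc3, the PUMA gene, rose by 1.77 ± 0.20 log2 and Pmaip1, the NOXA gene, by 2.01 ± 0.24 log2, and the pore former Bax went from 346, 331 and 318 TPM to 746, 784 and 715 TPM (1.17 ± 0.09 log2). Apaf1, the core of the apoptosome, rose by 2.06 ± 0.12 log2. Bmf, another BH3-only gene, was the member that fell, from 7.78, 28.3 and 14.7 TPM to 1.69, 4.77 and 2.71 TPM (-2.04 ± 0.26 log2, limma adjusted p = 1.71e-05). The members left uncalled were Bid, Bcl2l11, Casp1 and Dram1.

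Of the repair genes 3 of 11 rose (median 0.43 log2). Ercc5, an endonuclease of nucleotide excision repair, had 12.7, 13.8 and 11 TPM in Control + CsA and 73.6, 108 and 87.9 TPM in Restored + CsA (2.74 ± 0.12 log2, limma adjusted p = 4.58e-10). Polk, a translesion polymerase, rose by 2.50 ± 0.15 log2. Tnfrsf23, a decoy receptor for TRAIL placed in the list as a p53 target and not a repair enzyme, rose by 2.05 ± 0.37 log2, a call that was lost in the 6 libraries fitted alone (limma adjusted p = 0.0616). Xpc, Ddb2 and Rrm2b, which are textbook p53 targets, changed by 0.39 ± 0.08, 0.45 ± 0.18 and 0.64 ± 0.14 log2 and were not called.

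Among 23 tested metabolic targets 12 rose and 1 fell (median 1.13 log2). Ak1, an adenylate kinase, had 6.54, 15.7 and 11.7 TPM in Control + CsA and 192, 369 and 204 TPM in Restored + CsA (4.38 ± 0.37 log2, limma adjusted p = 2.53e-07). Ddit4l, an inhibitor of mTORC1 signalling, had 1.28, 4.41 and 3.06 TPM in Control + CsA and 49.7, 92.9 and 85 TPM in Restored + CsA (4.33 ± 0.22 log2, limma adjusted p = 1.58e-09). Dcxr, a sugar reductase, had 11.7, 19.2 and 13.5 TPM in Control + CsA and 149, 272 and 197 TPM in Restored + CsA (3.69 ± 0.30 log2, limma adjusted p = 1.91e-07). In each of these genes the lowest restored library exceeded the highest control several times over. Cpt1c, a carnitine palmitoyltransferase, rose by 2.97 ± 0.24 log2, with 8.88, 108 and 77.2 TPM after restoration and the lowest value in 4711-1, as in the controls. Gls2, a glutaminase known as a p53 target, fell from 4.95, 12.4 and 11.7 TPM to 1.6, 4.5 and 4.3 TPM (-1.25 ± 0.22 log2), a call that was lost without the block (limma adjusted p = 0.385). Tigar changed by 0.44 ± 0.12 log2 and Sesn1 by -0.20 ± 0.15 log2 without being called, while Sesn2, a leucine sensor, rose by 1.87 ± 0.28 log2.

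13 of 19 signalling and surface genes rose and 0 fell (median 1.63 log2). Sulf2, an enzyme that removes sulfate from heparan, had 14.6, 14.6 and 2.68 TPM in Control + CsA and 217, 225 and 67.5 TPM in Restored + CsA (3.96 ± 0.56 log2, limma adjusted p = 5.33e-05). Line 4716-11 was the lowest in both groups. Wnt9a, a Wnt ligand, rose by 3.13 ± 0.30 log2 from controls under 1 TPM, and passed the filter on low values through restored libraries. Gdf15, a secreted stress hormone, had 80.9, 262 and 130.0 TPM in Control + CsA and 628, 1766 and 698 TPM in Restored + CsA (2.70 ± 0.30 log2), with 4711-18 the highest in both groups. Without the block 8 of the 19 rose. In the antigen presentation and interferon list 4 of 21 rose (median 0.21 log2): Tap1, Nlrc5, Ifi35 and Psmb9. Without line 4711-1 the count was 2, and without 4711-18 the median was 0.41 log2. Tap1, the peptide transporter of the class I pathway, had 1.34, 0.191 and 1.42 TPM in Control + CsA and 29.8, 34.4 and 44.4 TPM in Restored + CsA (4.28 ± 0.21 log2, limma adjusted p = 1.54e-09). Nlrc5, the class I transactivator, had 3.06, 0.416 and 2.92 TPM after restoration and lost its call without line 4711-1 (limma adjusted p = 0.0532), without the block (limma adjusted p = 0.131) and in the 6 libraries fitted alone (limma adjusted p = 0.0647). Nlrc5 passed the filter on low values through restored libraries. The class I genes H2-K1 and B2m changed by -0.37 ± 0.34 and 0.21 ± 0.10 log2, and the interferon gene Irf7 by 0.30 ± 0.25 log2, none of them called.

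Mitotic genes fell without exception: 30 of 30 list members were called lower, with a median of -2.62 log2 and means of -2.55, -3.14 and -2.04 log2 in lines 4711-1, 4711-18 and 4716-11, and each of the 30 was called under every alternative run. Plk1, the polo-like kinase of mitotic entry and exit, had 153, 125 and 137 TPM in Control + CsA and 15, 6.11 and 16.4 TPM in Restored + CsA (-3.47 ± 0.28 log2, limma adjusted p = 1.48e-07). Ccnb2, cyclin B2, had 191, 156 and 179 TPM in Control + CsA and 23.2, 8.5 and 24.1 TPM in Restored + CsA (-3.29 ± 0.32 log2, limma adjusted p = 1.04e-06). Ccna2, cyclin A2, had 136, 181 and 128 TPM in Control + CsA and 15.4, 11.1 and 25.8 TPM in Restored + CsA (-3.08 ± 0.29 log2, limma adjusted p = 9.12e-07). In each of these genes line 4711-18 had the lowest restored value and no restored library reached a control. Mki67, the proliferation antigen, went from 126, 76.8 and 71.3 TPM to 16.3, 6.39 and 22.7 TPM (-2.63 ± 0.42 log2). Promoters of such genes are known for CCAAT boxes, bound by NF-Y, and for the cell cycle homology region TTTGAA, bound by the DREAM complex. The 250 bases before the start are shown for 3 members. They had the largest falls among those in the RefSeq table, with the genes of 1 chromosome left out beforehand. Capitals mark the CCAAT box (reverse complement ATTGG) and the homology region TTTGAA (reverse complement TTCAAA). The members are Plk1 at chr7:122159185-122159434, plus strand, Ccnb2 at chr9:70421555-70421804, minus strand and Kif11, a spindle motor, at chr19:37376132-37376381, plus strand (GRCm38.p6):
Plk1: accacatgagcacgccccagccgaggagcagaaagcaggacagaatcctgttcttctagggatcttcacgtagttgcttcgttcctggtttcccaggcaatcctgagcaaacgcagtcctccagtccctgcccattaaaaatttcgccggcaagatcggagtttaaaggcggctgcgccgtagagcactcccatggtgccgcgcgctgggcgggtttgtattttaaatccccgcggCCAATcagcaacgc
Ccnb2: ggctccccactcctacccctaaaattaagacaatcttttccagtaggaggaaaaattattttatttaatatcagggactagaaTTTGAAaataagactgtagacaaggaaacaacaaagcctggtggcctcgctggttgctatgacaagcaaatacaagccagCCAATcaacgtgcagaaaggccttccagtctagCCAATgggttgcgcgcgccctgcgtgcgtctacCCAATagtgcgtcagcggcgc
Kif11: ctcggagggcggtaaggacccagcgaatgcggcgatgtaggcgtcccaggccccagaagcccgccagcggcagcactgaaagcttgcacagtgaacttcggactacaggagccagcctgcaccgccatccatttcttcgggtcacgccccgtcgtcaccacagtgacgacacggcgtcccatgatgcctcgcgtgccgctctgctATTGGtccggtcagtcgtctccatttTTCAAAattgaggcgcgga
Plk1 showed 1 CCAAT box and 0 TTTGAA, Ccnb2 3 and 1, and Kif11 1 and 1. Of the 24 list members in the table, 21 held CCAAT on either strand (87.5 percent, against 37.5 percent of all genes) and 8 held TTTGAA (33.3 against 18.3 percent). Both strands were read, the motifs can share letters, and a match is a description and not a site. Kif11 itself had 149, 87.2 and 89 TPM in Control + CsA and 19, 4.63 and 17.4 TPM in Restored + CsA.

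DNA replication genes did not share this fall. Of 36 tested, 1 fell and 0 rose, with a median of -0.15 log2. The member that fell was Mcm10, which loads polymerase alpha, with 33.2, 33.8 and 24.2 TPM before and 12.2, 9.85 and 12.3 TPM after (-1.33 ± 0.21 log2). Pcna, the sliding clamp, had 485, 527 and 469 TPM in Control + CsA and 534, 489 and 525 TPM in Restored + CsA, and the helicase subunits Mcm2 to Mcm7 changed by -0.45 to 0.33 log2. E2f1, which drives S phase genes, changed by 0.51 ± 0.14 log2. Among the pocket proteins that restrain E2F, Rb1 rose from 7.36, 13.7 and 7.48 TPM to 21.1, 44.6 and 32.6 TPM (1.67 ± 0.12 log2, limma adjusted p = 5.85e-08) although its floxed part is meant to be deleted in these lines, and TPM of the whole gene does not tell an intact transcript from a deleted one. Rbl2, the other floxed gene, had 7.39, 7.59 and 8.76 TPM after restoration (0.35 ± 0.16 log2) and Rbl1, the intact p107 gene, 29.1, 34.6 and 33.9 TPM (0.13 ± 0.15 log2), neither called.

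Cholesterol synthesis genes fell in 15 of 25 members, and all 25 had a negative change (median -1.17 log2). Insig1, the sterol sensor of the endoplasmic reticulum, had 56.1, 241 and 58.4 TPM in Control + CsA and 23.4, 18.3 and 15.6 TPM in Restored + CsA (-2.24 ± 0.46 log2, limma adjusted p = 0.00125). Cyp51, lanosterol demethylase, had 45.5, 173 and 67.2 TPM in Control + CsA and 16.6, 17 and 20.8 TPM in Restored + CsA (-2.11 ± 0.41 log2, limma adjusted p = 0.000831). Fdps, farnesyl diphosphate synthase, had 136, 571 and 199.9 TPM in Control + CsA and 66.1, 86 and 55.2 TPM in Restored + CsA (-1.86 ± 0.38 log2, limma adjusted p = 0.00105). In all 3 genes line 4711-18 had by far the highest control, and the restored libraries of the lines were close together. The list's mean was -0.69, -2.03 and -0.95 log2 in 4711-1, 4711-18 and 4716-11. The count rested on the lines included: 6 genes fell without 4711-18, 20 without 4711-1 and 5 when the 6 libraries were fitted alone.

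The inflammatory secretion list divided: 6 of 18 tested members rose and 6 fell, with a median of -0.18 log2. The members that fell were cytokines and chemokines, namely Cxcl5, Ccl2, Ccl20, Cxcl2, Cxcl1 and Il33. Ccl20, a chemokine of dendritic cells and lymphocytes, had 137, 312 and 108 TPM in Control + CsA and 15.8, 15.3 and 21.1 TPM in Restored + CsA (-3.20 ± 0.28 log2, limma adjusted p = 4.15e-07). Cxcl1 had 578, 726 and 1111 TPM before and 103, 400.3 and 318 TPM after, with 4711-18 the least lowered. Those that rose were the metalloproteases Mmp10, Mmp3 and Mmp13, the cyclooxygenase gene Ptgs2, and Lif and Csf2. Mmp10, stromelysin 2, had 3.63, 0.331 and 3.68 TPM in Control + CsA and 82.3, 32.1 and 102 TPM in Restored + CsA (4.42 ± 0.48 log2, limma adjusted p = 3.47e-06). Ptgs2, which starts prostaglandin synthesis, had 139, 31.9 and 46.1 TPM in Control + CsA and 473, 345 and 299 TPM in Restored + CsA (2.61 ± 0.51 log2, limma adjusted p = 0.000792). Line 4711-18 had the lowest controls in both. Il6 did not exceed 0.322 TPM in any of the 6 libraries. Without 4711-18 the median was 0.10 log2. With no cell line block, 3 rose and 0 fell.

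**Figure D2:**
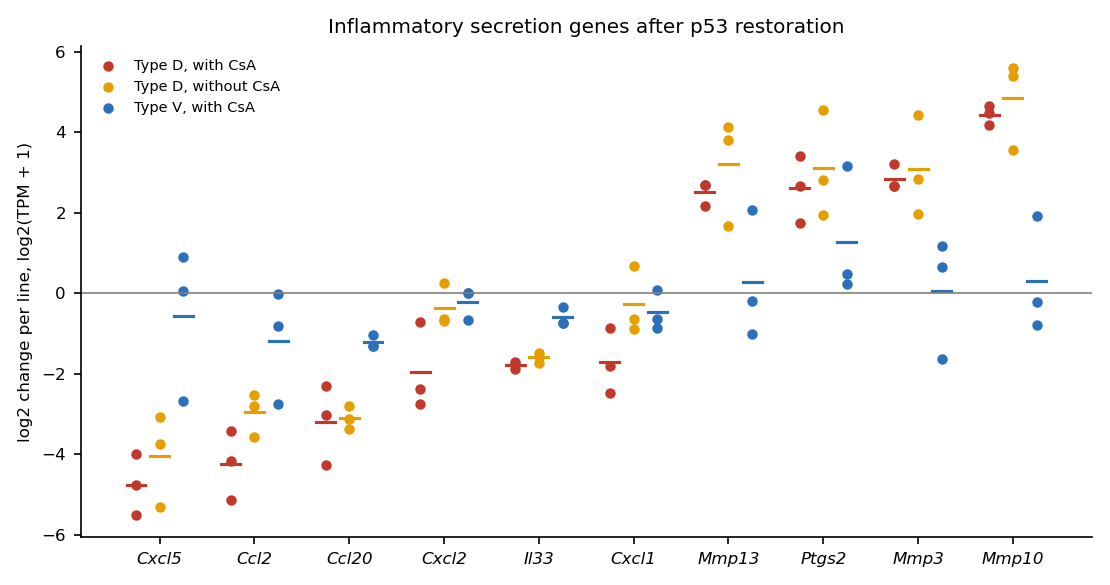
Log2 change of TPM + 1 per cell line for 10 inflammatory secretion genes called in Type D with CsA, with points for the 3 lines and bars for their means; colors separate Type D with CsA, Type D without CsA and Type V with CsA. Cxcl5 fell by 4.76 log2 and Mmp10 rose by 4.42 log2 on average in Type D with CsA, and their Type V means were -0.57 and 0.31 log2.

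The 16 tested cyclophilins, the proteins that CsA binds, were not called in either direction as scaled here (median -0.15 log2). Ppia, cyclophilin A, had 853, 792 and 872 TPM in Control + CsA and 667, 562 and 728 TPM in Restored + CsA (-0.37 ± 0.09 log2, limma adjusted p = 0.00545). Ppie, cyclophilin E of the spliceosome, changed by -0.20 ± 0.07 log2 and the mitochondrial Ppif, cyclophilin D, by -0.22 ± 0.15 log2. Ppia was lower after restoration in each line by less than the 1 log2 required. Ppih, a partner of the U4/U6 particle, gave the most negative change, -0.89 ± 0.13 log2, and was called at -1.02 log2 after median-ratio scaling and -1.03 log2 after quantile normalization. Ppil3 gave the most positive, 0.90 ± 0.08 log2. The other 11 lay between -0.66 log2 for Ppic of the secretory pathway and 0.75 log2 for Nktr of natural killer recognition. Ppil6 did not pass the filter on low values. Calcineurin and NFAT genes were likewise uncalled in 12 of 12, with 1 called higher without line 4711-1 (median 0.31 log2), and Rcan1, a standard readout of calcineurin, had 16.5, 20.1 and 20 TPM before and 23.9, 31.5 and 26.5 TPM after.

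Of 14 tested genes of necroptosis, pyroptosis and ferroptosis, 1 rose. It was Mlkl, which permeabilizes the membrane in necroptosis, with 48, 31.4 and 43.6 TPM before and 94.8, 83.2 and 81 TPM after (1.07 ± 0.14 log2), and its call was lost without line 4711-18 (0.92 log2), after median-ratio scaling (0.94 log2) and after quantile normalization (0.95 log2). Ripk1 and Ripk3, its upstream kinases, changed by 0.32 ± 0.10 and -0.45 ± 0.23 log2. Gpx4, the enzyme that prevents ferroptosis, had 346, 502 and 338 TPM before and 367, 499 and 345 TPM after. In the list of stress in the endoplasmic reticulum and of amino acids, 1 of 20 rose (median 0.01 log2): Ddit3, the CHOP gene, by 1.29 ± 0.36 log2, a call that was lost without 4711-1 (limma adjusted p = 0.0702) and without 4716-11 (limma adjusted p = 0.0804), and without the block (limma adjusted p = 0.101). Its activator Atf4 had 978, 1026 and 798 TPM before and 1085, 829.7 and 1029 TPM after. 0 of the 8 tested neuroendocrine and lineage markers was called, and Nkx2-1, the lung lineage factor, ran from 0.246 TPM in 4711-1 to 80.7 TPM in 4711-18 among the controls.

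**Figure D3:**
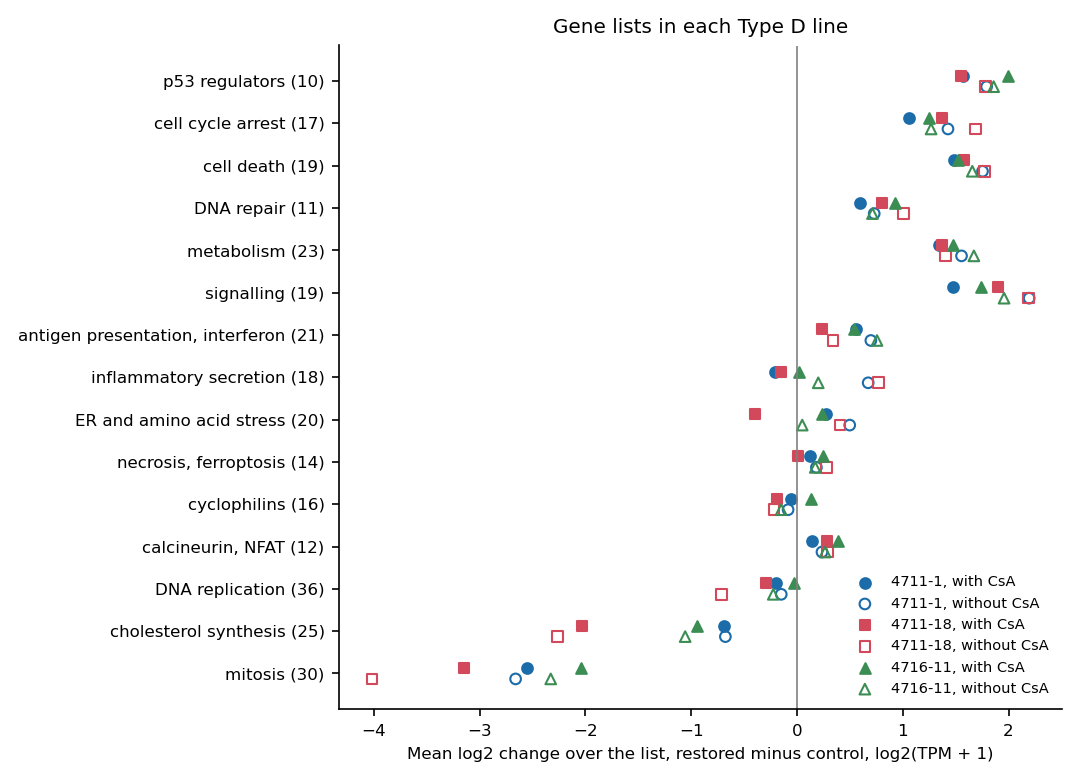
Mean log2 change over the tested members of 15 gene lists (number tested in parentheses) in each Type D line, filled symbols with CsA and open symbols without; the vertical line marks no change. The mitosis list lay lowest, at -2.55, -3.14 and -2.04 log2 with CsA, the cholesterol list was lowest in 4711-18, and the signalling and p53 regulator lists lay at 1.48 log2 or more in all lines.

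The same 3 lines without CsA gave the closest comparison. There 995 genes (7.05 percent) rose and 587 (4.16 percent) fell. Each comparison has its own controls. Of the 833 genes that rose with CsA, 700 also rose without it, which is 84 percent of the first list and 70.4 percent of the second. Of the 533 that fell, 436 also fell, 81.8 and 74.3 percent of the lists, and 0 genes were called in opposite directions. Over the genes that rose with CsA the median change was 1.44 log2 with CsA and 1.47 log2 without. Over the 995 genes that rose without CsA it was 1.28 log2 with CsA and 1.41 log2 without. Each set was chosen on one of the changes compared, which favors a larger median on that side. The difference of the changes was tested in the same model, and limma called 0 genes higher (0 percent) and 0 lower with CsA. The lowest limma adjusted p was 0.266, and 571 of 14104 genes (4.05 percent) had an unadjusted p under 0.05. The model holds no term for each line's own response to restoration. Where lines differ in that response alike with and without CsA, the SE of the difference is too wide. The absence of calls thus does not show that the changes were equal. Without line 4711-1 and without 4711-18, 1 microRNA gene each was called lower, Mir6950 at -1.86 log2 and Mir3076 at -2.91 log2.

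**Figure D4:**
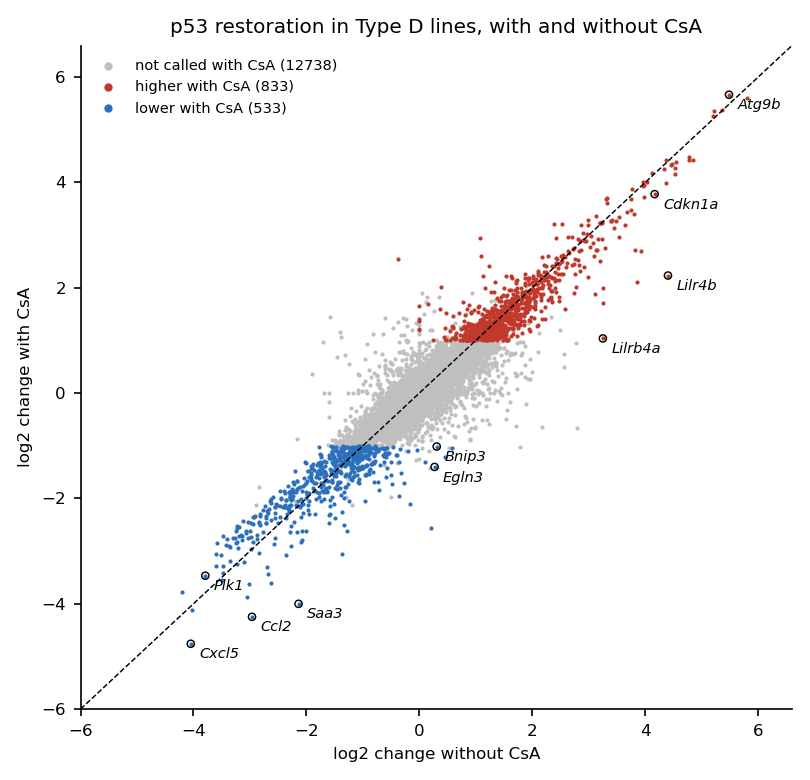
Log2 change after p53 restoration in Type D without CsA (x axis) and with CsA (y axis) for the 14104 genes tested, red where called higher and blue where called lower with CsA; the dashed line marks equal change. Atg9b lay near the line at 5.48 and 5.67 log2, Lilrb4a and Lilr4b below it at 1.04 and 2.23 log2 with CsA, and Ccl2 below it at -4.25 log2 with and -2.96 log2 without CsA.

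The changes with and without CsA were also compared by list. The p53 regulators had a mean of 1.71 ± 0.25 log2 with CsA and 1.81 ± 0.04 log2 without (SD over 3 lines). Death genes had 1.53 ± 0.05 and 1.73 ± 0.06 log2, and signalling genes 1.71 ± 0.21 and 2.11 ± 0.14 log2. The regulators were lower with CsA in 2 lines and higher in 4716-11, with differences of -0.22, -0.23 and 0.13 log2 (with minus without, 4711-1, 4711-18 and 4716-11). Within lines the death list differed by -0.27, -0.19 and -0.14 log2 and the signalling list by -0.72, -0.29 and -0.22 log2, lower with CsA in each line. The mitosis list fell less with CsA in 30 of 30 members, by 0.11, 0.87 and 0.28 log2 on average in the lines, most of it in 4711-18, and 3 members had an unadjusted p under 0.05. The inflammatory secretion list had a mean of -0.11 ± 0.12 log2 with CsA and 0.55 ± 0.31 log2 without. It differed by -0.88, -0.93 and -0.18 log2 in the lines. In 16 of its 18 members the change lay below that without CsA, and 4 had an unadjusted p under 0.05. Over all genes tested 7947 of 14104 had the smaller size of change with CsA. The change lay below that without CsA in 6217, and 571 had an unadjusted p under 0.05 (4.05 percent).

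The study grouped p53-responsive genes into 6 modules, and the modules were chosen on Control and Restored libraries of these lines, so neither their directions nor the sizes of their changes without CsA are independent evidence. With CsA, Modules 1, 5 and 6 rose in 214 of 248, 80 of 101 and 57 of 76 tested genes, and Modules 2, 3 and 4 fell in 29 of 56, 151 of 231 and 50 of 76, the last at 21 without the block. Module 1 was led by Atg9b, 1700007K13Rik and Sytl1, Module 3 by Sprr2b, Sult1c2 and Plk1, and Module 4 by Cxcl5, Ccl2 and Vsig1. Module 5 had means of 1.4, 1.82 and 1.52 log2 with CsA and 1.78, 2.11 and 1.55 log2 without in lines 4711-1, 4711-18 and 4716-11. An unadjusted p under 0.05 for the difference was found for 7 of its 101 genes, against 571 of 14104 over all genes (4.05 percent). In 81 of the 101 the change with CsA lay below that without, against 6217 of 14104 over all genes. The limit given above on sizes without CsA holds for this count. Ms4a10, a membrane protein, and Slc4a11 led it. Ms4a10 had 0.174, 0.285 and 0.302 TPM in Control + CsA and 16.2, 38.6 and 23.7 TPM in Restored + CsA (4.35 ± 0.47 log2, limma adjusted p = 3.43e-06). No control library of either type reached 1 TPM of Ms4a10, so it passed the filter on low values through restored libraries, which favors a rise. Module 2 was led by Sprr2a3, Smpd3 and Kif20b (-3.25, -2.46 and -2.08 log2), of which Smpd3 was not called without the block (limma adjusted p = 0.0560), and Module 6 by genes that included Eda2r and Pltp (3.93 and 3.27 log2).

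The Lilrb4 paralogs are inhibitory receptors known from myeloid cells. They were listed with earlier results of these data known, and both were among the 15 genes with the lowest unadjusted p for the difference. Their values are thus a description. Both genes reached 1 TPM only in restored Type D libraries and passed the filter on low values through them. Lilr4b had 4.41, 6.0 and 2.62 TPM in Restored + CsA and 70.6, 20.9 and 13.4 TPM in Restored, against 0.322, 0 and 0 TPM in Control + CsA. Lilrb4a was listed at 0 in every Control and Control + CsA library and had 0.655, 1.88 and 0.815 TPM in Restored + CsA and 17.1, 7.27 and 4.74 TPM in Restored. Each restored library with CsA was below the lowest restored library without it in both genes. The paralogs share sequence, and reads may be split between them. The difference of the changes was -2.17 ± 0.45 log2 for Lilr4b (limma adjusted p = 0.632, unadjusted p = 0.00021) and -2.21 ± 0.39 log2 for Lilrb4a (limma adjusted p = 0.266, unadjusted p = 3.77e-05). Lilrb4a's own rise with CsA lost its call without 4711-18 (limma adjusted p = 0.0895) and with only the Type D libraries fitted (limma adjusted p = 0.0511).

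Besides the Lilrb4 paralogs, other genes with the lowest unadjusted p for the difference were looked at after their values were seen. Of these, 4 are described here. Bnip3, a mitophagy receptor, had 45.3, 123 and 331 TPM in Control + CsA and 25.6, 50.7 and 166 TPM in Restored + CsA, but 65.3, 122 and 363 TPM in Control and 85.8, 123 and 524 TPM in Restored. It fell by 1.02 ± 0.16 log2 with CsA, a call that was lost without 4711-18 (-0.90 log2), and changed by 0.31 ± 0.16 log2 without CsA. Egln3, an oxygen-sensing prolyl hydroxylase, had 10.7, 19.3 and 32 TPM in Restored + CsA and 51.4, 54.4 and 88.7 TPM in Restored, and each line was lower with CsA. Pdk1, which inhibits pyruvate dehydrogenase, and Pfkl, a phosphofructokinase, fell by 1.09 ± 0.14 and 1.17 ± 0.13 log2 with CsA. Without CsA these 2 genes changed by -0.19 ± 0.14 and -0.40 ± 0.13 log2. The differences were -1.32 ± 0.23, -1.67 ± 0.40, -0.90 ± 0.20 and -0.77 ± 0.18 log2 for Bnip3, Egln3, Pdk1 and Pfkl, all with a limma adjusted p of 0.266 to 0.733, so that none passed the test. The falls of all 4 with CsA were not called without the block (limma adjusted p = 0.246 to 0.554).

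**Figure D5:**
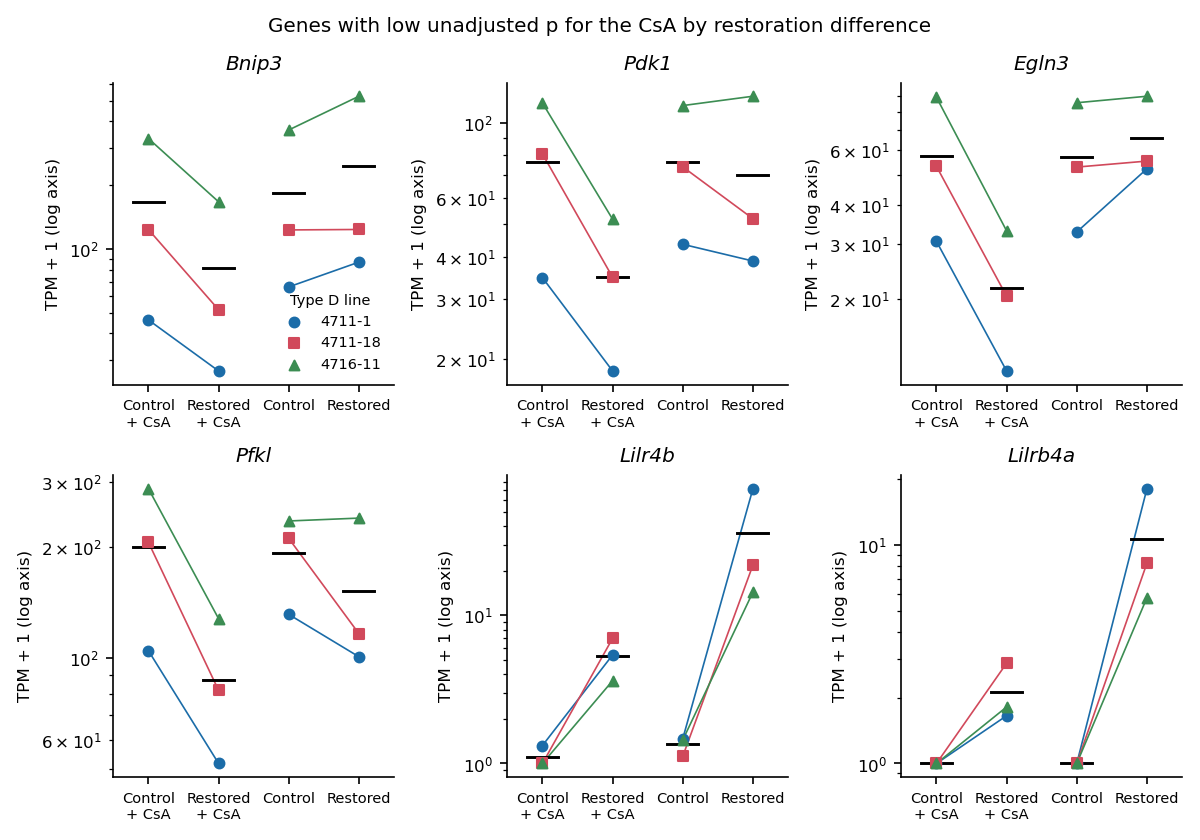
TPM + 1 on a log axis of 6 genes with a low unadjusted p for the difference between restoration with and without CsA, with the 4 Type D groups along the x axis, points for the 3 lines, thin lines joining the libraries of a line and black bars for group means. Bnip3, Pdk1, Egln3 and Pfkl were lower in Restored + CsA than in Control + CsA in each line, and Lilr4b and Lilrb4a were higher in Restored than in Restored + CsA.

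Restoration under CsA in the 3 Type V lines raised 709 genes (5.03 percent) and lowered 415 (2.94 percent). Of the genes that rose in Type D, 445 rose in Type V as well (53.4 percent of the Type D and 62.8 percent of the Type V list), and of those that fell 232 fell (43.5 and 55.9 percent). The calls went in opposite directions for 2 genes. The difference between the types was tested directly and called 138 genes above (0.978 percent) and 189 below (1.34 percent) Type V. After median-ratio scaling it called 99 and 220, in the 12 libraries of the compared groups alone 28 and 42, and without the cell line block 1 and 1. Cdkn1a rose by 4.51 ± 0.13 log2 in Type V, and the types differed by -0.73 ± 0.19 log2 (limma adjusted p = 0.0358), under the 1 log2 required. The mitosis list, with a median of -2.51 log2 there, had 0 members above and 0 below Type V. In the inflammatory secretion list 5 of 18 were below Type V (Cxcl5, Ccl2, Ccl20, Cxcl2 and Il33) and 1 above (Mmp10). Ccl2 in Type V had 0.281, 379 and 667 TPM in Control + CsA and 0.257, 214 and 98.8 TPM in Restored + CsA, a change of -1.20 ± 0.44 log2, and differed from Type D by -3.05 ± 0.62 log2 (limma adjusted p = 0.0122). In Module 4, 25 of 76 genes lay below Type V. The modules were chosen on Control and Restored libraries of both types, so this count is not independent evidence. Type V lines differed among themselves in these genes, with 4711-11 near 0 for Ccl2. Cxcl5 was at 0 in the Control + CsA library of 4711-11, and Vsig1 had 0, 5.82 and 0.198 TPM in Type V Control + CsA. Genes near 0 in the controls could hardly fall.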

How the data were processed

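The authors deposited TPM per gene for 24 stranded mRNA libraries, sequenced as 75-base single reads. The labels name HISAT2 with mm10 and GRCm39, and the methods name kallisto or HISAT2, so which made the TPM values is uncertain here. Of 25239 genes, 14104 with at least 1 TPM in at least 3 of 24 libraries were tested with limma 3.58.1 (R 4.3.3) on log2(TPM + 1), with 8 group coefficients and cell line as a block, two-sided, Benjamini-Hochberg adjusted over all genes. The pairing comes from the cell line labels: deviations of same-line libraries correlated at 0.599 to 0.733. The block takes out differences in level between lines. The p-values therefore measure the spread of the changes within lines, pooled over all groups and both types, with 12 residual degrees of freedom. That spread holds the differences between lines in their response to restoration, so the test of the difference with CsA can miss differences. The members and lists were chosen with earlier results of these data known. Genes named were the 10 largest called changes each way above 5 TPM with all lines alike. Up to 3 leading called members of each list each way were added. Each module gave its 3 largest changes by size, called or not. All cyclophilins, pocket proteins and Lilrb4 paralogs were named, and up to 5 largest differences from Type V each way. Other genes were named for their known roles after their values were seen. Alternatives were pseudocount, filter, scaling, block, samples fitted and each line left out. A fit of only the Type D libraries was added after seeing the data. The fit was also run on simulated data with normal residuals. Recovery was required there only for the main comparison with the block, not for the difference with CsA, and the outcome is not used as support. Promoters are RefSeq, GRCm38.p6, matched by symbol. No coordinates of the deposited table were used. Some genes are not reported here.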

Additional observations from a re-analysis of the deposited data

Results flagged for a closer look

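The change under CsA differed between Type D and Type V beyond the test's threshold in 10 genes named by size. Mmp10 changed by 4.11 ± 0.68 log2 more in Type D than in Type V (SE, limma), and Cxcl5 by -4.19 ± 1.07, Saa3 by -3.85 ± 0.92 and Lcn2 by -3.54 ± 0.80 log2. All 4 were called in Type D itself. Line 4716-10 alone held high Saa3 and Lcn2 in Type V, with 606 and 1303 TPM in Control + CsA. Tnc, the matrix protein tenascin C, differed by 2.83 ± 0.77 log2, with a rise of 2.97 log2 in Type D. Mgp, Capn6 and Col3a1 differed by 4.21 ± 0.34, 3.01 ± 0.28 and 2.92 ± 0.60 log2, but these genes did not exceed 0.364 TPM in the 6 Type D libraries and fell in Type V, Mgp from 223, 315 and 339.7 to 17.5, 15.4 and 12.4 TPM. Cyp2s1, a cytochrome P450, differed by -3.62 ± 0.47 log2, falling in Type D (-1.51 log2) and rising in Type V (2.11 log2). Without the block neither the rise of Tnc nor the fall of Cyp2s1 in Type D was called (limma adjusted p = 0.234 and 0.495). Gm15987, a long noncoding RNA gene within the span of Clec2g, so that its reads are uncertain, differed by -3.73 ± 0.35 log2. It rose in Type V, from 0, 0.792 and 0.176 TPM to 15.3, 34.6 and 35.7 TPM, and passed the filter on low values through restored libraries.

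With each of the 6 lines left out in turn, Mmp10, Mgp, Capn6, Gm15987 and Cyp2s1 were called in 6 of 6 fits. Lcn2 and Col3a1 were called in 3 of 6 (limma adjusted p up to 0.0888 and 0.0673), Saa3 in 2 of 6 (up to 0.0830), and Cxcl5 and Tnc in 1 of 6 (up to 0.130 and 0.158). Cxcl5 kept its call only without 4716-14 and Tnc only without 4711-11. Without the cell line block Mgp and Gm15987 alone of the 10 were called.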

How the results depend on the processing

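The same-line block mattered most. Without pairing by line, restoration under CsA in Type D gave 498 genes higher and 265 lower, restoration without CsA 633 and 344, restoration under CsA in Type V 401 and 249, and the difference between Type D and Type V 1 and 1. In the compared groups alone that difference gave 28 and 42. With each line left out in turn it gave 80 to 144 genes higher and 95 to 233 lower. The lowest counts were 80 higher without 4716-11, and 95, 105, 117 and 106 lower without 4711-1, 4716-11, 4711-11 and 4716-14. The difference between restoration with and without CsA gave 0 higher throughout and 0 to 1 lower. The other counts over all genes stayed within 1.5 times the reported ones, and 0 named genes reversed a called change. Medians of 4 lists changed sign in 10 values: endoplasmic reticulum stress (as low as -0.12 log2), necrosis (-0.10), neuroendocrine (-0.15) and secretion (0.10).

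For the genes named in Type D under CsA, 1407 values were recomputed: 1372 kept their direction and side of the threshold, 30 lost the call and 5 gained it. Among list medians 338 of 364 moved by less than 1 SD over lines, and among genes that differed between the types 38 of 130 values lost the call. TPM has no depth, so counting error was not estimated. With 3 lines a type, the spread of the changes within lines sets the precision. Whether libraries of a line came from separate cultures is not given.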
